A study of Caenorhabditis elegans with 2 samples.

Results

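The 10 genes described here encode the dosage compensation complex of C. elegans. They are sdc-2, sdc-1, sdc-3, dpy-21, dpy-30, dpy-27, mix-1, dpy-26, dpy-28 and capg-1, chosen by name from 19973 annotated protein-coding genes, and all 10 were found in the annotation. For each, every peak summit in the gene and 10000 bp either side was read from lists of SDC-2 binding sites. Of the 10 genes, 2 lie on X (sdc-2 and sdc-1) and 8 on autosomes. Binding was read from ChIP-seq (chromatin immunoprecipitation followed by sequencing) in worms of strain OP92, a transgenic line with a GFP-FLAG tag on the C terminus of SDC-2. The immunoprecipitation used an anti-GFP antibody on sonicated chromatin from whole hermaphrodite late embryos, collected 3.25 hours after synchronization by egg bleaching. The study had 1 group of 2 biological replicates, so it holds no contrast between conditions, and no test was made. The line is a single strain, and the labels do not give the number or the place of the copies of the tagged gene. Both replicates are of whole organisms, so binding in few cells and weak binding in many cannot be told apart.

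The complex binds both X chromosomes of hermaphrodites and lowers their transcription. SDC-2, made in hermaphrodite embryos, starts its assembly on X, together with the zinc-finger proteins SDC-3 and SDC-1. DPY-27, MIX-1, DPY-26, DPY-28 and CAPG-1 form a condensin that resembles the complex that compacts mitotic chromosomes. DPY-21 removes methyl groups from lysine 20 of histone H4, and DPY-30 is shared with the COMPASS complex, which methylates lysine 4 of histone H3. The question addressed here is where SDC-2 peaks lie at the genes for SDC-2 itself and its partners.

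The sequences below surround the strongest summits of the 5 genes with a reproducible peak in their window, shown because the account turns on these sites. They are from ce11 (the WBcel235 assembly), on the plus strand and 5′ to 3′. Capitals mark 3 runs of letters, sought on both strands. AGACGCAG (reverse complement CTGCGTCT) is the 8-letter run with the largest excess at reproducible peaks over sequence 2000 bp to either side. GGTTCGA is the core of the B box of tRNA genes, and GAGAG (reverse complement CTCTC) is a short repeat of GA, both sought after the sequences had been seen. In the sdc-1 sequence, AGACGCAG and GAGAG overlap.
sdc-1, chrX:16275362-16275562: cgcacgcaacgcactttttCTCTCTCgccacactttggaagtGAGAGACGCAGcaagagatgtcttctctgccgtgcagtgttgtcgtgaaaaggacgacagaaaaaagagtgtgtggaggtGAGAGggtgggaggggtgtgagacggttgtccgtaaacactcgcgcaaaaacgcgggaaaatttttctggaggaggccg
dpy-21, chrV:17951333-17951533: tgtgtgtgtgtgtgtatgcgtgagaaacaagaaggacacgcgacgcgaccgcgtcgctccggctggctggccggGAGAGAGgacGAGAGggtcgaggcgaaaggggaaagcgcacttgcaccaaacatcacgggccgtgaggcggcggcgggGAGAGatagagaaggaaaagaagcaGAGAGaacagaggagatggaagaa
dpy-27, chrIII:3820249-3820449: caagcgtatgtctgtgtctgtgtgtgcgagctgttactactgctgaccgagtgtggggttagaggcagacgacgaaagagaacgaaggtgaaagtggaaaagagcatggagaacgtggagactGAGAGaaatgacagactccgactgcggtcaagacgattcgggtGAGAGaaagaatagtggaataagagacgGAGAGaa
mix-1, chrII:10840186-10840386: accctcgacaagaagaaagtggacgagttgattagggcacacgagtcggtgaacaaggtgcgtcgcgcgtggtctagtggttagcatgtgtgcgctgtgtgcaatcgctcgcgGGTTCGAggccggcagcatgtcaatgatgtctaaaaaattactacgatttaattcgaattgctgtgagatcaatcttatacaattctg
dpy-28, chrIII:10759157-10759306: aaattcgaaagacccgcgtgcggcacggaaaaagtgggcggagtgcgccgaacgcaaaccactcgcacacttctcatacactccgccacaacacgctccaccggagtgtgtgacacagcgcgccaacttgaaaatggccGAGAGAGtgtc
The dpy-28 sequence was ended at the untranslated exon of the neighbouring gene tasp-1. For contrast, the pooled summit that lies nearest a 5′ end of dpy-21 was in an AT-rich intron, and none of the 3 runs occurs in its window.
dpy-21 intron, chrV:17947470-17947670: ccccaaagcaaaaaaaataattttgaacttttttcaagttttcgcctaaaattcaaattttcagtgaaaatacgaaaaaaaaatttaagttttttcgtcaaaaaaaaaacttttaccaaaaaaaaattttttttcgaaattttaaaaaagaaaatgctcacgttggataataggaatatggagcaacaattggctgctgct

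Of the 5 windows reaching 100 bases either side of the reproducible summits, 1 held AGACGCAG (sdc-1), 1 held GGTTCGA (mix-1) and 4 held GAGAG (sdc-1, dpy-21, dpy-27 and dpy-28). Over all 1343 reproducible peaks, AGACGCAG occurred in 12.2% of such windows, GGTTCGA in 9.83% and GAGAG in 66.5%. In windows 2000 bp to either side of those peaks the shares were 0.707%, 1.34% and 25.1%. A second 8-letter run, AGAAAGAG, which had the largest difference in share between X and the autosomes, was in 10.5% of the reproducible windows on X and 5% of those on autosomes. It occurred in 0 of the 71 pooled summit windows of the complex genes, where 3.27% of all pooled windows held it. GC content of the 5 windows ran from 48.3% to 59.7% with a median of 53.2%, against 49.3% at all reproducible peaks and 35.8% beside them. A match here says only that the letters are there, and a window without one says nothing about the factor.

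The values below come from 4 lists of peaks, ranked by the authors' signal, a value per peak on a scale of its own in each list. The list called on both replicates pooled held 26639 peaks on the nuclear chromosomes, and the lists of replicate 1 and replicate 2 held 25174 and 24434. The authors also gave a list thresholded on the irreproducible discovery rate (IDR), a measure of how well peaks recur between replicates. Its 1343 nuclear peaks are the strongest of the pooled list and are called reproducible or IDR peaks. Rank 1 is the strongest peak of a list. The pooled and replicate lists hold background along with peaks, so a summit of high rank number may be either. Depth is unknown, as no list holds read counts.

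Reproducible peaks lay at 5 of the 10 genes. The windows of sdc-1, dpy-21, dpy-27, mix-1 and dpy-28 each held 1 IDR summit, and those of sdc-2, sdc-3, dpy-30, dpy-26 and capg-1 held 0. By the same rule, 23% of all protein-coding genes had an IDR summit in the window. On X the count was 1 of 2, where 49.3% of genes had one, and on autosomes 4 of 8, where 18.8% had one. The complex genes are long, with a median of 7916 bp against 2027 bp for all protein-coding genes, so their windows were longer too, 27916 bp against 22025 bp. The same 5 genes had a summit in the window among the 1343 strongest peaks of each replicate alone. As IDR peaks are chosen for recurring between replicates, this was largely fixed by that choice.

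An IDR summit was within 1000 bp of an annotated 5′ end at 2 of the 10 genes, sdc-1 and dpy-27. By the same rule, 4.64% of all protein-coding genes had one. The shares were 11.2% on X, where sdc-1 lies, and 3.6% on autosomes, where dpy-27 lies. In the pooled list, 6 genes had a summit within 1000 bp of a 5′ end (sdc-1, sdc-3, dpy-30, dpy-27, mix-1 and capg-1), where 46.1% of all genes did. That was 1 of 2 on X against 56.1%, and 5 of 8 on autosomes against 44.5%. The pooled counts thus lay near the background, and with 10 genes a share moves by 10 percentage points per gene.

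**Figure D1:**
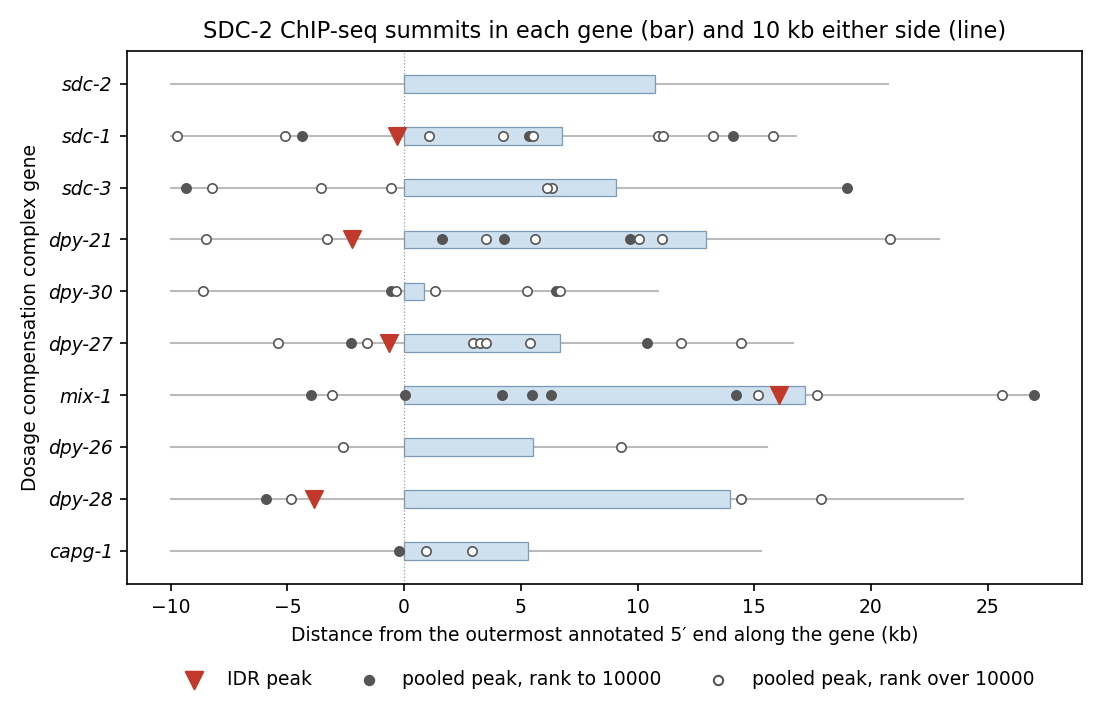
Pooled SDC-2 summits at the 10 genes; the x axis is the distance in kb from the outermost annotated 5′ end, bars are genes and lines reach 10 kb either side, red triangles are IDR peaks, filled circles are other pooled peaks to rank 10000 and open circles are weaker ones. The sdc-2 line holds no summit, and of the 5 IDR peaks only that of mix-1 lies inside a gene.

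The gene for SDC-2 itself had no peak. sdc-2 (WBGene00004746) spans X:11522707-11533450 on the plus strand, and its window of 30744 bp held 0 summits in the IDR list, 0 in the pooled list, 0 in replicate 1 and 0 in replicate 2. In the pooled list, 38 of 2731 genes on X (1.39%) had a window with no summit, as did 5.45% of all protein-coding genes and 6.1% of those on autosomes, and among the complex genes sdc-2 was the only one. X is the chromosome with the most pooled peaks per kb, 0.322 against 0.204 to 0.299 on the autosomes.

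The stretch without a summit that holds sdc-2 ran for 53694 bp in the pooled list, from X:11499594 to X:11553288. It was the longest of 5713 such stretches between neighbouring pooled summits on X, where the median was 1808 bp and the next longest 49721 bp. Over all chromosomes it was in place 39 of 26633. In replicate 1 it ran for 54149 bp and in replicate 2 for 56636 bp, in both the longest on X, ahead of 52927 bp and 49924 bp. The rank of this stretch was looked up after the empty window had been seen. It was thus a little longer than its runner-up on X in each list, and the longer ones lay on autosomes.

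The stretch holds 9 protein-coding genes, in order F29G6.1, ccdc-149, hpo-34, sdc-2, C35C5.8, C35C5.9, gcp-2.2, selt-1.1 and mig-2, the last a Rac-like GTPase. Its GC content was 35.6%, against 35.2% for all of X, and the assembly has 0 unknown bases there. The pooled summits at its edges were weak, with ranks 11090 and 14681. The nearest IDR summits were 50071 bp before the gene, with rank 113 and signal 315, and 30383 bp after its end, with rank 1305 and signal 83.7. A list of called peaks shows that none was called, and the read coverage at sdc-2 was not analysed here.

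**Figure D2:**
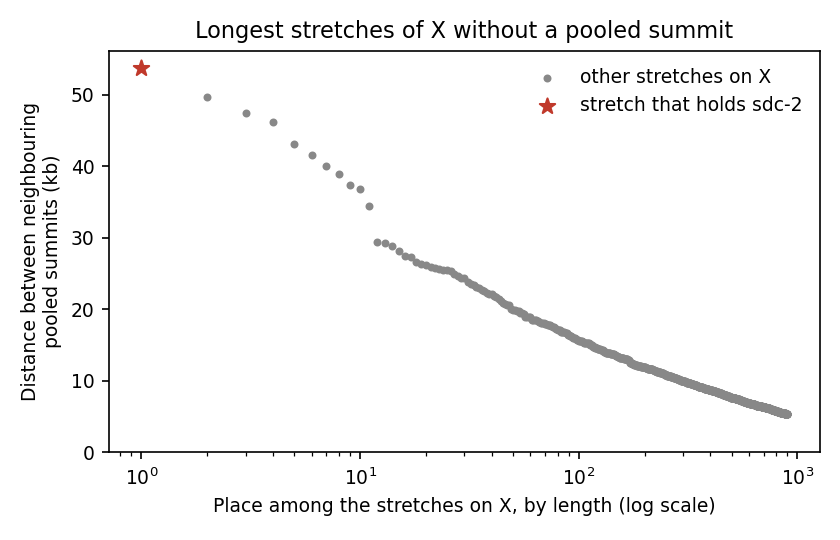
Distances in kb between neighbouring pooled summits on X, plotted by place from the longest (log scale on the x axis); the red star is the stretch that holds sdc-2. It stands first at 53694 bp, with the second at 49721 bp and a gradual fall after it.

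The other gene of the complex on X had a peak just before its start. sdc-1 (WBGene00004745, X:16275763-16282534, plus strand), which encodes a zinc-finger protein, had its IDR summit at X:16275462, 301 bp upstream of the outermost 5′ end and in intergenic sequence. Its signal was 102 in the pooled list (rank 824), 46.0 in replicate 1 (rank 1002) and 57.9 in replicate 2 (rank 778). The replicate summits were 3 bp and 11 bp from the pooled one. This is the window printed above with AGACGCAG. Among genes on X, 61.3% had a weaker best pooled peak in their windows than sdc-1, or none, and the like shares below are read the same way.

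The sdc-1 window held 13 pooled summits, the most of the 10 genes, and 4 of them were in the gene. The second strongest, at rank 2022, was 2 bp upstream of the 5′ end of a tRNA gene (WBGene00014388), 4394 bp before the start of sdc-1. Its ranks were 6836 in replicate 1 and 1369 in replicate 2, so the replicates differed more here than at the start of sdc-1. The third, at rank 3121, was in a coding exon of sdc-1 at 5333 bp from the start, with ranks 2727 and 5836. The 2 genes of the complex on X were thus far apart, with 13 summits and 0, where the median gene on X had 7.

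**Figure D3:**
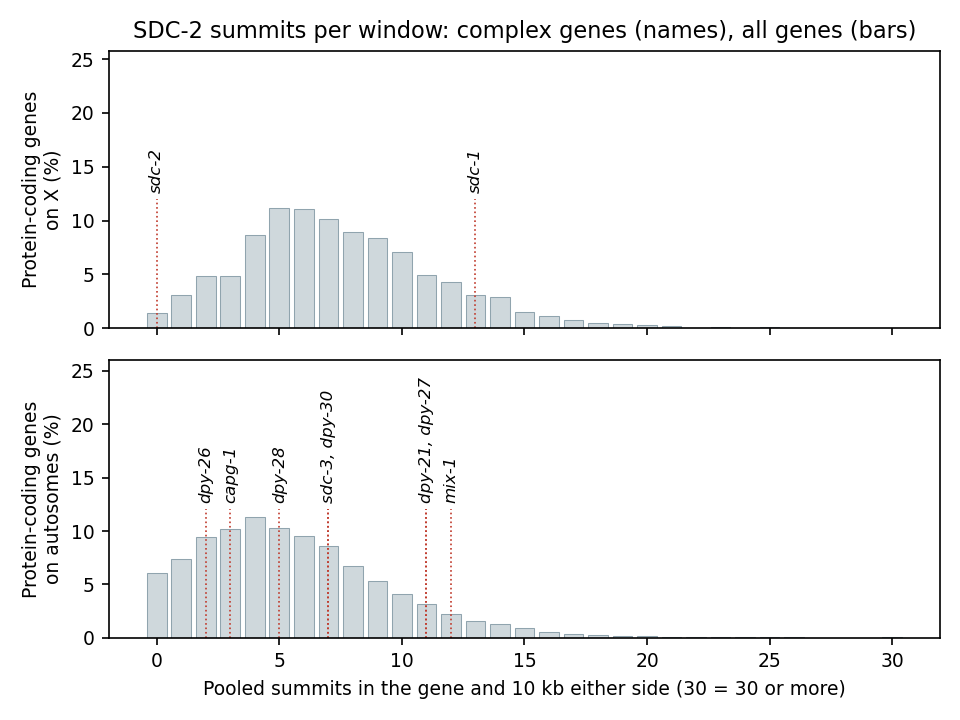
Share of protein-coding genes (y axis, %) by the number of pooled summits in the gene and 10 kb either side (x axis), X above and autosomes below; bars are all genes and dotted lines mark the complex genes. On X, sdc-2 stands at 0 and sdc-1 at 13, and on autosomes the genes run from 2 (dpy-26) to 12 (mix-1).

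sdc-3 (WBGene00004747, V:15039148-15048207, minus strand) encodes the zinc-finger protein that acts with SDC-2 and SDC-1. It had 7 pooled summits and 0 IDR summits in the window. The best, at V:15057560, was in a coding exon of mcm-3, a gene for a subunit of the replicative helicase, 9353 bp upstream of sdc-3. Its signal was 61.1 in the pooled list (rank 2824). The best sdc-3 window summit in replicate 1 was at the same position, with a signal of 33.8 (rank 2349). That in replicate 2 had a signal of 29.7 (rank 4298), 9191 bp upstream of sdc-3. The replicate 2 summit within 100 bp of the pooled one was weaker, with a signal of 16.8 (rank 17530). At the start of sdc-3 itself, a pooled summit 558 bp upstream had rank 15885, and the replicates differed. Replicate 2 had a summit 591 bp upstream at rank 7326, and replicate 1 had none within 1000 bp. Of IDR summits, the nearest to the sdc-3 5′ end lay 17142 bp off, at rank 1069.

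dpy-21 (WBGene00001080, V:17936282-17949193, minus strand), the histone H4 demethylase of the complex, had its IDR summit at V:17951433, 2240 bp upstream of the gene. The peak was 118 bp wide, narrower than the usual 450 bp. Its signal was 153 in the pooled list (rank 365), 81.1 in replicate 1 (rank 319) and 77.8 in replicate 2 (rank 416). The nearest protein-coding start was that of Y59A8B.24, 516 bp away. Of genes on autosomes, 96.3% had a weaker best peak in their windows.

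The gene body of dpy-21 held 7 of the 11 pooled summits of its window. The strongest of them was in a coding exon at rank 3918, with ranks 5819 and 4481 in replicates 1 and 2. The next, at rank 4596, was in the AT-rich intron shown above, 1458 bp downstream of a 5′ end, with ranks 6475 and 6052. At 25.4%, its window had the lowest GC content of all 71. No pooled summit was within 1000 bp of a 5′ end of dpy-21, and replicate 2 alone had one, 107 bp downstream at rank 24414, near the bottom of its list.

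dpy-30 (WBGene00001088, V:12191519-12192385, plus strand), the subunit shared with COMPASS, is the shortest of the 10 genes at 867 bp. Its window held 7 pooled summits, 0 of them in the gene. The best was in a coding exon of lon-3, a cuticle collagen gene, 6491 bp downstream of the dpy-30 start. Its signal was 46.8 in the pooled list (rank 5707), and the matching replicate summits had ranks 17694 and 5876. A summit 567 bp upstream of dpy-30 had a signal of 42.5 and rank 7265, with rank 6615 in replicate 1 and rank 15108 in replicate 2. The nearest IDR summit lay 112113 bp from the 5′ end, the farthest of the 10 genes.

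The condensin genes spanned nearly the whole range. dpy-28 (WBGene00001087, III:10763131-10777076, plus strand), which encodes a non-SMC subunit, had the strongest peak of all 10 genes, at III:10759257. Its signal was 287 in the pooled list (rank 125), 130 in replicate 1 (rank 145) and 158 in replicate 2 (rank 119). It lay 3874 bp upstream of dpy-28 but 50 bp upstream of the 5′ end of tasp-1, the nearer gene. No list had a summit within 1000 bp of the dpy-28 start. The gene body held 0 pooled summits, and 99.3% of genes on autosomes had a weaker best peak in their windows.

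mix-1 (WBGene00003367, II:10824246-10841424, plus strand), the SMC subunit that the complex shares with the mitotic condensins, was the only gene with an IDR summit inside it. The summit, at II:10840286, was in an intron, 16040 bp downstream of the 5′ end and 31 bp upstream of the snoRNA gene M106.6. Its signal was 207 in the pooled list (rank 220), 87.9 in replicate 1 (rank 274) and 118 in replicate 2 (rank 196). The peak was 176 bp wide. This is the window printed above with GGTTCGA. The annotation places the snoRNA gene there, and no tRNA gene start was nearer. Of genes on autosomes, 98.3% had a weaker best peak.

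The mix-1 window held 12 pooled summits, of which 7 lay between the ends of the gene. At rank 2045, an intronic summit 6310 bp from the start had ranks 2695 and 3083 in replicates 1 and 2. At rank 8846, a summit was in a coding exon of VM106R.1, a gene nested in mix-1. At the start of mix-1, 16 bp downstream of the 5′ end, a summit had rank 5328 with a signal of 48.1. Replicate 1 had it at the same distance at rank 5725, and replicate 2 had a summit 142 bp downstream at rank 8069.

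dpy-27 (WBGene00001086, III:3813018-3819679, minus strand) encodes the SMC subunit particular to dosage compensation. Its IDR summit, at III:3820349, was 670 bp upstream of the 5′ end and 76 bp upstream of the 5′ end of a noncoding RNA gene, R13G10.5. Its signal was 141 in the pooled list (rank 422), 65.2 in replicate 1 (rank 473) and 75.3 in replicate 2 (rank 437). Replicate summits were 11 bp and 1 bp away. Of genes on autosomes, 95.5% had a weaker best peak. Of the 11 pooled summits in the window, 4 lay in the gene, at ranks 10670 to 26577, and 0 of these 4 were in both replicates.

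dpy-26 (WBGene00001085, IV:12445801-12451335, minus strand), another non-SMC subunit, had the weakest best peak of the 9 genes that had any. Its 2 pooled summits, at ranks 18658 and 18922, were at the genes C25G4.17 and spe-44, and replicate 1 alone had a summit within 100 bp of each. Replicate 2 had a single summit in the window, 115 bp downstream of the dpy-26 5′ end in an intron, at rank 10990. The replicates therefore shared no site at dpy-26. Of genes on autosomes, 11.0% had a weaker best peak.

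capg-1 (WBGene00009254, minus strand, 5294 bp long) encodes the third non-SMC subunit of this condensin and lies on an autosome. Its best summit was 216 bp upstream of the 5′ end, with a signal of 45.9 in the pooled list (rank 5969), 20.7 in replicate 1 (rank 9313) and 22.8 in replicate 2 (rank 8655). The replicate summits were 288 bp and 210 bp upstream. The other 2 pooled summits in its window, both in the gene, had ranks 14921 and 26342 and a match in neither replicate. Of genes on autosomes, 41.3% had a weaker best peak.

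Ordered by the best summit in the window, the 9 genes with any ran from dpy-28, mix-1, dpy-21, dpy-27 and sdc-1 through sdc-3, dpy-30 and capg-1 to dpy-26. Replicate 1 gave the same order. Replicate 2 gave it too, except that dpy-30 (rank 4278) and sdc-3 (rank 4298) traded places, and these neighbours did not differ beyond their spread between replicates. The order is of genes, not of shared sites. The best dpy-30 summit was 582 bp upstream of its start in replicate 1 but 6338 bp downstream, in lon-3, in replicate 2. At dpy-26 the best summits were 9291 bp and 115 bp downstream of its start in replicates 1 and 2. dpy-21 and dpy-27 stood at ranks 319 and 473 in replicate 1 but at 416 and 437 in replicate 2, so the gap between them was small in replicate 2. The median best pooled rank over the 10 genes, with sdc-2 placed last, was 1824, against 4027 for all protein-coding genes. On the autosomes the median was 1623 over the 8 complex genes and 4555 over all genes. On X it was 13732 over the 2 complex genes and 1374 over all genes. That value for the 2 genes is only the midpoint of rank 824 for sdc-1 and the last place given to sdc-2, which had no summit. It therefore does not describe a class.

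**Figure D4:**
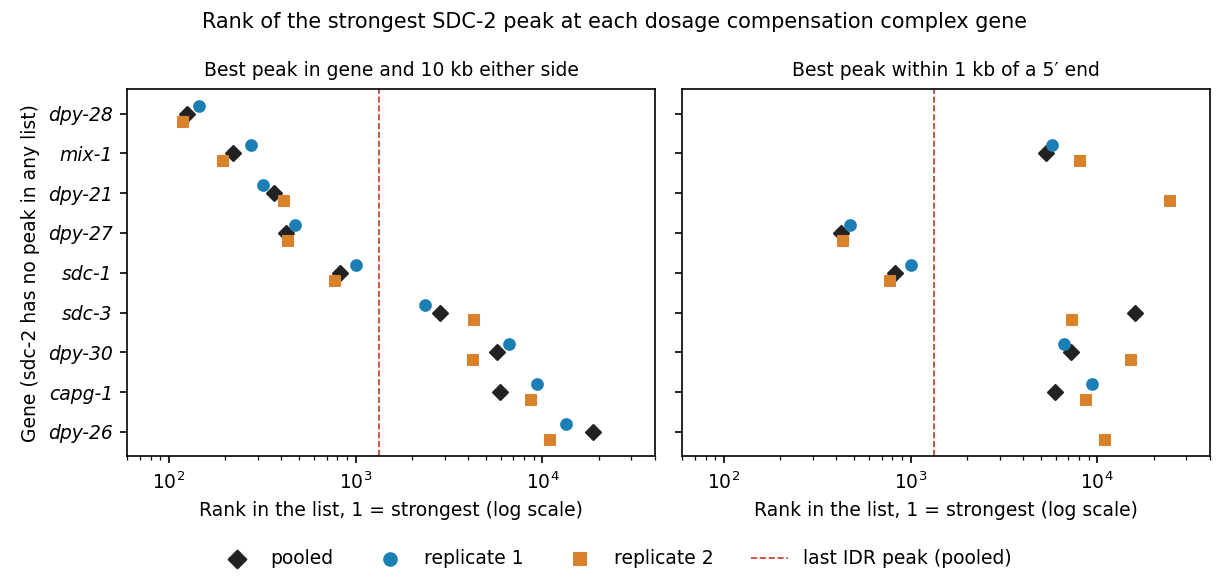
Rank of the strongest peak at each gene (log scale, 1 is the strongest), left in the gene and 10 kb either side and right within 1 kb of a 5′ end; diamonds are the pooled list, circles replicate 1 and squares replicate 2, and the dashed line is the last IDR peak of the pooled list. Left of the line stand 5 genes in the left panel and 2, dpy-27 and sdc-1, in the right panel.

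In all, the windows of the 10 genes held 71 pooled summits, 66 in replicate 1 and 75 in replicate 2. Per kb of window, the 10 genes summed to 0.246 pooled summits and all protein-coding genes to 0.253. On X these values were 0.226 and 0.317, with sdc-2 adding a window without a summit, and on autosomes 0.251 and 0.243. The median per kb over single windows was 0.282 for the complex genes and 0.232 for all protein-coding genes. A gene of the complex had a median of 7 in its window and any protein-coding gene 5. Only 8 of the 71 were within 1000 bp of the 5′ end of a complex gene, while 28 were within 1000 bp of the start of another protein-coding gene and 35 were farther from either. The windows hold many more starts of neighbours than of complex genes, so these counts do not compare the classes of start.

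Of the 71 summits, 27 (38.0%) had a summit within 100 bp in both replicates, against 31.3% of all pooled summits. All 5 IDR summits did, where 95.8% of all IDR summits do, and so did 7 of 7 at ranks 1344 to 5000, where 79.3% do. At ranks 5001 to 15000 it was 15 of 29 against 37.1% of all, and at ranks 15001 to 26639 it was 0 of 30 against 3.85%. Those 30 include both summits at dpy-26, the one at the start of sdc-3 and 3 of the 4 in dpy-27.

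Coding exons of protein-coding genes held 30 of the 71 summits (42.3%), against 27.5% of all pooled summits. The first share is from windows set around long genes and the second from all chromosomes, so they are not like for like. The remaining 41, or 57.7%, comprised 2 in untranslated exons, 20 in introns and 19 in intergenic sequence. The summits cluster in few windows, some less than 250 bp apart, so they are not independent draws. Of the 5 IDR summits, 4 were intergenic and 1 intronic, where 68.5% of all IDR summits were intergenic and 4.47% in coding exons. AGACGCAG was in 5 of the 71 windows, at sdc-1, mix-1 (at ranks 8024 and 9374), dpy-27 and dpy-30, where 3.74% of all pooled windows held it. GGTTCGA was in 3, at mix-1, at the tRNA gene in the sdc-1 window and in a dpy-21 intron at rank 23530, where 2.35% of all pooled windows held it.

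Genes for related complexes were listed for comparison. Of the 8 genes of condensins I and II, which include mix-1, dpy-26, dpy-28 and capg-1, 6 had a pooled summit within 1000 bp of a 5′ end and 1 had an IDR summit there. That gene was hcp-6, a condensin II subunit, with a signal of 113 at rank 657, 117 bp upstream, and ranks 689 and 833 in replicates 1 and 2. smc-4, the SMC partner of MIX-1 in the mitotic condensins, had rank 16344 at 165 bp upstream of its start. Its ranks were 10470 and 21503 in replicates 1 and 2. The dpy-27 summit of rank 422 lay farther from its start, 670 bp upstream. Over all protein-coding genes the shares are those given above, 46.1% with a pooled summit at the start and 4.64% with an IDR summit there. The counts in these short lists, and in those that follow, were not tested against them.

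Of 10 listed cohesin genes, 8 were matched by name, and 7 of these had a pooled summit within 1000 bp of a start and 0 an IDR summit. The highest were wapl-1, for a factor that releases cohesin from DNA, with rank 1851, and coh-1, on X, with rank 2143. In replicates 1 and 2 the ranks were 4873 and 1431 for wapl-1 and 4834 and 1793 for coh-1. smc-3 stood above both in replicate 1, at rank 2736, but below both in replicate 2, at rank 7154. Of 7 COMPASS genes, all 7, including dpy-30, had a pooled summit at the start and 1 an IDR summit, set-2, the H3K4 methyltransferase, with a signal of 114 at rank 636. rbbp-5 followed at rank 1536 (ranks 888 and 4788 in replicates 1 and 2), and dpy-30 was at rank 7265. Of 6 genes for enzymes acting on lysines 16 or 20 of histone H4, including dpy-21, 3 had a pooled summit at the start and 1 an IDR summit. That was set-4, an H4K20 methyltransferase, with a signal of 101 at rank 838 and ranks 1949 and 572 in replicates 1 and 2. The others were mys-1, an acetyltransferase gene, at rank 2515 (rank 1089 in replicate 1), and set-1, a second H4K20 methyltransferase gene, at rank 15996 (rank 11741 in replicate 1). Replicate 2 had no summit at the start of mys-1 or of set-1. In the pooled list none was called at the start of dpy-21, the demethylase of the same lysine.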

How the data were processed

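Peak lists of 2 biological replicates of 1 group were used. All positions are on ce11, which is WBcel235, with genes from Ensembl release 115. The README texts deposited with the samples say that peaks with background were called per replicate and on the pooled replicates, with 1 further file as input to all 3 calls, and that the IDR list was made from them. That file is also an input of the control-normalized signal and is taken here to be the control. Not given in the sources used here are aligner, peak caller and IDR threshold. The signal of each peak is the authors' deposited value, used only to rank and describe peaks within a list. Depth is unknown. The control reads were not analysed here.

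From the lists, summits were placed in gene windows (gene and 10000 bp either side), within 1000 bp of annotated 5′ ends, and in coding exons, untranslated exons, introns or intergenic sequence, in this order. Mitochondrial peaks were left out. Where a gene had no summit, its rank was set after the last of the list in medians. Replicate summits were matched within 100 bp. The counting was checked on simulated summits. Python 3.11.15 was used. The 10 genes, the lists of related genes and the distances were chosen with earlier results of these data known, so no test was made. Counts at the main distances stand beside the same count over all protein-coding genes. Named are all 10 genes with their best, reproducible and nearest summits, and up to 4 genes per related list. smc-1 and pqn-85 were not matched by name. Alternatives were other distances, overlap of peaks, single replicates and shorter or longer lists.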

Additional observations from a re-analysis of the deposited data

How the results depend on the processing

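With only the gene body, 1 gene had a reproducible summit (mix-1), 26 pooled summits were counted, 4 genes had none and the median best rank was 13787. With 2000 bp either side these became 3 genes (sdc-1, dpy-27 and mix-1), 36 summits, 2 genes with none and a median rank of 6617. With 5000 bp the same 5 genes had a reproducible summit as with 10000 bp, and the median rank was 3396.5. With 20000 bp sdc-3 was added, 126 summits were counted, 0 genes had none and the median rank was 745.5. A reproducible summit at the start remained at 1 gene with a limit of 500 bp (sdc-1) and at 1 gene among the 500 strongest peaks (dpy-27). A pooled summit was at the start of 4 genes with a limit of 500 bp and of 7 with 2000 bp. Within 1000 bp, the list of replicate 1 alone had a summit at 5 genes, without sdc-3. That of replicate 2 alone had one at 8 genes, with dpy-21 and dpy-26 added. No like counts over all protein-coding genes stand beside these alternatives. They show only how the values move with the setting, not how the complex genes compare with others. Of the pooled window summits, 27 were found in both replicates within 100 bp, 18 within 50 bp and 37 within 250 bp. Counting overlapping peaks in place of summits within 100 bp gave 42 pooled peaks found in both replicates. With 1 replicate left out the median best rank ran from 1675.5 to 2528. The 5 genes with a reproducible summit in the window, and the 2 with one at the start, were the same. That sameness was largely fixed, as IDR peaks are chosen for recurring between replicates. The alternatives of 10000 bp around the 5′ end only (4 genes) and of merging summits less than 250 bp apart (65 summits) were added after the data were seen. No paired analysis was possible because the study has 1 group. Without read counts, whether a gene with no peak has reads above the control was not tested.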
